A study of Mus musculus with 30 samples.

Results

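Acetylation of histone H3 at lysine 9 (H3K9ac) was set against total RNA polymerase II (POLR2) at the ends of protein-coding genes in 8 libraries out of the 30 samples of the series. The 8 are all 4 H3K9ac and all 4 POLR2 libraries, and the comparison is between the antibodies, not between oxygen levels. Of 43774 ends of 21887 genes, 8158 carried both signals in all 4 pairs of libraries, 133 carried H3K9ac only and 1367 carried POLR2 only. The other ends were empty in all 4 pairs (22879) or changed class between pairs (11237).

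The cells were NOS1+ N1E115 cells, a mouse neuroblastoma line labelled as brain tissue and as neuroblast (replicate 1) or neuroblastoma (replicate 2), and every library came from this line. Cells were kept for 3 days at 4% (hypoxia) or 20% (normoxia) O2, with 5% CO2 stated for replicate 2, then fixed, and their fragmented chromatin was immunoprecipitated and sequenced. Each antibody has 2 libraries per O2 level, numbered replicate 1 and replicate 2, and a pair joins the H3K9ac and the POLR2 library of the same O2 level and number. The labels do not say whether replicates were separate cultures, so p-values cover no more than the spread among the 8 libraries, part or all of which could be technical.

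H3K9ac is laid down by acetyltransferases such as GCN5 and PCAF on nucleosomes beside the start sites of genes in use. RNA polymerase II assembles at the promoter, is phosphorylated at serine 5 of its tail repeats around initiation and at serine 2 during elongation, and travels through the gene and past its end before release. A promoter mark is therefore usually sharp, whereas the polymerase is spread over gene bodies.

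Each gene end was given a window reaching 1 kb to either side of it, and a signal was called there when an H3K9ac peak or a POLR2 island overlapped the window by at least 1 bp. The peaks came from one caller (MACS2) and the islands from another (SICER), which makes islands longer by construction. A peak's score was read as −log10 of its q-value and an island's value as its number of reads, both as the authors gave them without column names. The H3K9ac lists held 71857 to 92649 peaks with a median width of 440 to 522 bp, and the POLR2 lists 11172 to 23262 islands with a median width of 3799 to 5799 bp. The POLR2 library of 20% O2 replicate 1 stood apart, with the fewest islands and 2.06 M reads within islands against 5.93 to 10.2 M in the other 3. Reads within islands are not the depth, which the sources used here do not state, so no counting interval is given. Strand was known for 17492 genes, which gave 17492 starts and as many far ends, a far end being the annotated end away from the start. Genes that mark neuroblasts and sympathetic neurons were tested against the label: by either end, 8 of 18 (Chga, Chgb, Gap43, Hand2, Insm1, Phox2a, Th and Tubb3) had both signals in all 4 pairs (44.4%, against 36.3% of all genes), and 2 (Gata3 and Nefl) had neither. The other 8 of the 18 changed class between pairs. All 6 endothelial markers had neither signal in any pair. Among 6 markers each of macrophages, fibroblasts, oligodendrocytes with Schwann cells, hepatocytes and keratinocytes and 5 of astrocytes, those with both signals in all 4 pairs were 1 macrophage gene, Cd68, and 1 keratinocyte gene, Lor. Lor had islands of only 67 to 165 reads, and its H3K9ac rank at its start was 2.02 of 100. Class changed between pairs for 4 oligodendrocyte or Schwann cell markers, 2 each of fibroblasts, hepatocytes and astrocytes, and 1 of macrophages.

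The promoters below show the 3 classes at gene starts. Each is 300 bases from RefSeq on GRCm38.p6, from 250 bases before to 50 after the start, written 5′ to 3′ on the gene's strand with every CG dinucleotide in capitals, because CpG content differed between the classes. They are the first gene starts of each class by rank that had a RefSeq promoter within 1 kb.

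Map1b and Atp5b carried both signals, and a peak or island overlapped the printed bases, in part or in whole, in all 4 libraries of each antibody. Map1b lies at chr13:99516553-99516852 on the minus strand and has 23 CG dinucleotides, and Atp5b lies at chr10:128083057-128083356 on the plus strand and has 18.
Map1b: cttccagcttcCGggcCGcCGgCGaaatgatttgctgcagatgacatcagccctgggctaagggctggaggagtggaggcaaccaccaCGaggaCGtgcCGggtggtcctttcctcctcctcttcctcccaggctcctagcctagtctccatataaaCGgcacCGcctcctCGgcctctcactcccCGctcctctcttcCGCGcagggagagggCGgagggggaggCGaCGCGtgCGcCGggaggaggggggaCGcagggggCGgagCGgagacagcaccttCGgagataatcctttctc
Atp5b: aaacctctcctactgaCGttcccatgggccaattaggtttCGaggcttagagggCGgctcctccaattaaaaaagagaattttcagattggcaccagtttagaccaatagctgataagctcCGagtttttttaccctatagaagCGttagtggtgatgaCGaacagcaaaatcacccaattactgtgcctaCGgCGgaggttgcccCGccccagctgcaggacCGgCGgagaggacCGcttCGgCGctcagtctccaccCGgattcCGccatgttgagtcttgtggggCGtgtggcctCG

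Parl and Ttc33 carried H3K9ac only: a peak overlapped the printed bases in all 4 H3K9ac libraries, and an island in 0 of 4 POLR2 libraries. Parl lies at chr16:20302313-20302612 on the minus strand with 13 CG dinucleotides, and Ttc33 at chr15:5185240-5185539 on the plus strand with 10.
Parl: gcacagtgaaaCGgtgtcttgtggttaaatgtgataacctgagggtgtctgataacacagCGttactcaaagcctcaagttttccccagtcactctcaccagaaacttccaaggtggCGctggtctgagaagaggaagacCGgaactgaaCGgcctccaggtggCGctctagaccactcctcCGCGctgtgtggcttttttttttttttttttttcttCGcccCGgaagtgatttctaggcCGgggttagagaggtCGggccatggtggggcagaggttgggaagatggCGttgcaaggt
Ttc33: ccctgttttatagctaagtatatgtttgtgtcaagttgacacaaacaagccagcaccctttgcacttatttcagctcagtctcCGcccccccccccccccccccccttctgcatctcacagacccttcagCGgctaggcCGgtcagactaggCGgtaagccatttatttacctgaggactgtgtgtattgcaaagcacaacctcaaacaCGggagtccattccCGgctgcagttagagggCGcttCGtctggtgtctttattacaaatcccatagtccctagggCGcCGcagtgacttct

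Lin7b and Slc35g3 carried POLR2 only: an island overlapped the printed bases in all 4 POLR2 libraries, and a peak in 0 of 4 H3K9ac libraries. Lin7b lies at chr7:45370515-45370814 on the minus strand with 15 CG dinucleotides, and Slc35g3 at chr11:69761795-69762094 on the minus strand with 2.
Lin7b: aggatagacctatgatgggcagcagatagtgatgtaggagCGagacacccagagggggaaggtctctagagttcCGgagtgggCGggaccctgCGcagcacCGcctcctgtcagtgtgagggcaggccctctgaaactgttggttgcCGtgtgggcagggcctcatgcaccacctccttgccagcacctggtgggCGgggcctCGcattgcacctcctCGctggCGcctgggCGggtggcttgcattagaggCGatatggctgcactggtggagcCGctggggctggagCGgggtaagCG
Slc35g3: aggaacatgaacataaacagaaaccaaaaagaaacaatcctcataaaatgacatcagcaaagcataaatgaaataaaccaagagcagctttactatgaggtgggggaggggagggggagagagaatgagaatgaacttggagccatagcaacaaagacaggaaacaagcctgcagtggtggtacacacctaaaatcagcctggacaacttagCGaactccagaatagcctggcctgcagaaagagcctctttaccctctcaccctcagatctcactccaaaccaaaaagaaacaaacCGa

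CpG content differed between starts with both signals and starts with 1 of them. A RefSeq promoter within 1 kb of the annotated start was matched for 5423 starts with both signals, and their median was 23 CG dinucleotides in 300 bases (quartiles 16 and 30). The median was 6 over 46 promoters with H3K9ac only, 5 over 55 with POLR2 only, and 3 over 6557 with neither. Observed over expected CpG was above 0.6 in 82.2% of promoters with both signals, 17.4% with H3K9ac only, 12.7% with POLR2 only, 14.6% with neither and 48.9% of all 15752 matched promoters. On this measure, the starts with a single signal were nearer to those with none than to those with both. The hexamer TATAAA, sought on both strands, was present in 6.01% of promoters with both signals, 10.9% with H3K9ac only, 12.7% with POLR2 only, 23.3% with neither and 13.7% of all. GGGCGG, which itself holds a CG, was present on either strand in 69.9%, 19.6%, 32.7% and 19.9% of the same classes and in 46.7% of all promoters. CCAAT, sought on both strands, was present in 38.0% to 41.3% of the 4 classes and 39.4% of all. Base composition sets part of these shares, and a match is no evidence of binding.

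**Figure D1:**
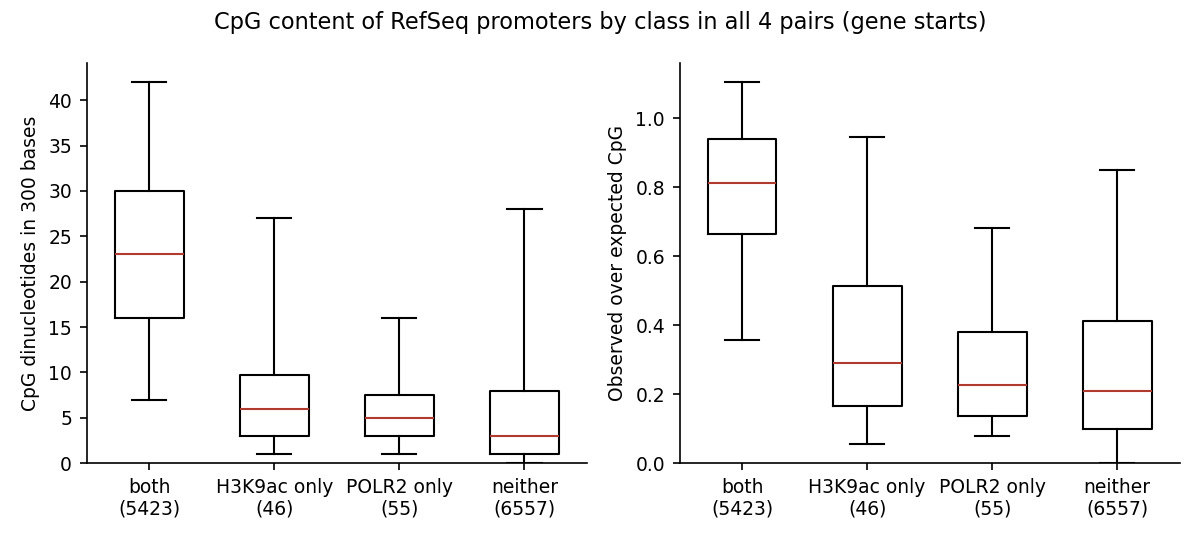
CpG dinucleotides per 300-base promoter (left) and observed over expected CpG (right) for gene starts by class in all 4 pairs, with the number of promoters under each class. Boxes span the quartiles, the line is the median and whiskers reach the 5th and 95th percentiles; the class with both signals has a median of 23 CG dinucleotides, against 6, 5 and 3 in the others.

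H3K9ac and POLR2 were called together at most gene starts that carried either, and the polymerase was called far more widely than the acetylation at the far ends of genes. H3K9ac was called at 13048 and 14727 gene ends in the 4% O2 libraries (replicates 1 and 2) and at 13178 and 14413 in the 20% O2 libraries. POLR2 was called at 16581 and 17824 ends at 4% O2 and at 11737 and 18282 at 20% O2. In 3 of 4 pairs POLR2 covered more ends, and the library with the fewest islands was the exception. The means were 13842 ± 853 for H3K9ac and 16106 ± 3000 for POLR2 (SD, n = 4 each). The difference of -2264 ends did not exceed the spread between libraries (exact permutation test, two-sided, p = 0.171; smallest p possible 0.0286). Without the POLR2 library of 20% O2 replicate 1 the difference was -3721 (exact permutation test, p = 0.0286, the smallest possible). With any other single library left out it was -2560 to -1539 (exact permutation test, p = 0.171 to 0.343).

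At gene starts the counts were close in 3 of the pairs. In 4% O2 replicate 1, 8945 starts carried H3K9ac and 8975 carried POLR2, and 8415 carried both. In 4% O2 replicate 2 the numbers were 9474, 9494 and 9054, and in 20% O2 replicate 2 they were 9430, 9558 and 9121. In 20% O2 replicate 1 there were 9067 acetylated starts, 6324 with polymerase and 6039 with both. The far ends of the same genes carried fewer signals and a different balance. H3K9ac was called at 1577, 2350, 1544 and 2148 far ends in the pairs 4% replicates 1 and 2 and 20% replicates 1 and 2, and POLR2 at 4452, 4942, 3262 and 5218. The antibodies did not overlap at far ends: every POLR2 library covered more of them than every H3K9ac library (difference in means -2564, exact permutation test, p = 0.0286, added after the data were seen). With the pairing kept this count could not pass, because 4 pairs allow no exact p under 0.125.

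**Figure D2:**
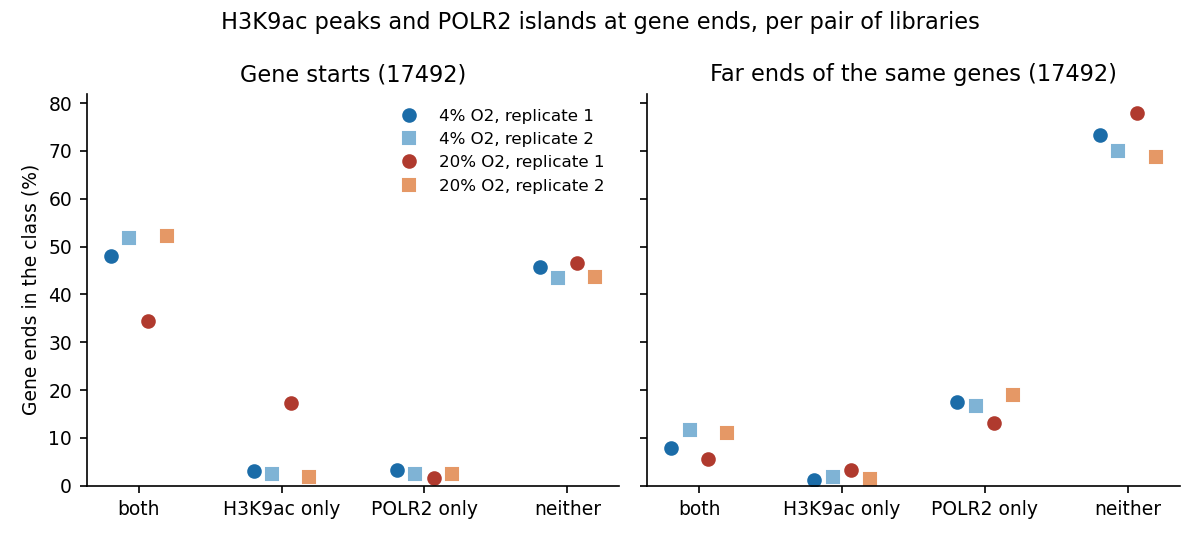
Share of 17492 gene starts (left) and of the far ends of the same genes (right) in each class, 1 point per pair of libraries; circles are replicate 1 and squares replicate 2. Both signals together reach 34.5% to 52.1% of starts and 5.49% to 11.7% of far ends, while POLR2 only holds 1.63% to 3.20% of starts and 13.2% to 18.9% of far ends.

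The share of acetylated ends that also had polymerase was 92.7%, 93.3%, 65.01% and 94.98% in the same order of pairs. The share of polymerase ends that also had acetylation was 73.0%, 77.1%, 73.0% and 74.9%. The first share was above the second in 3 pairs and below it in 20% O2 replicate 1. Over all ends the shares averaged 86.5% ± 14.4 and 74.5% ± 1.96 (SD, n = 4), a difference of 12.02 points within the spread (exact permutation test, p = 0.143); both shares of a pair have the same numerator. At gene starts the averages were 88.2% ± 14.5 and 95.01% ± 0.836 (difference -6.77 points, exact permutation test, p = 0.771). At far ends 81.3% ± 12.8 of acetylated ends had polymerase and 34.6% ± 5.44 of polymerase ends had acetylation. This difference of 46.7 points held in 4 of 4 pairs (exact permutation test, p = 0.0286). With the pairing kept, p was 0.125 by exact sign changes, the smallest 4 pairs allow. The numerator is shared here too, so the order within each pair follows from the far-end counts above and is no separate result.

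Polymerase was present less often at weakly acetylated ends than at others. Acetylated ends were divided into 10 equal groups by their highest peak score. In the lowest group an island was present at 74.3%, 66.7%, 35.8% and 69.2% of ends in the 4 pairs. In the fifth group the shares were 96.1%, 98.5%, 70.7% and 99.5%, and in the highest 93.1%, 97.5%, 71.6% and 98.6%. Every pair thus had its lowest share in the weakest group, and the shares changed little from the fifth group upward. At far ends the climb was longer, from 67.1%, 73.1%, 26.8% and 70.8% in the lowest group to 96.2%, 100%, 77.3% and 100% in the highest.

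Ranked by polymerase, starts and far ends differed at every level. At starts in the lowest group of island reads, acetylation was present at 79.3%, 91.5%, 92.5% and 88.2%, and in the highest group at 93.99%, 93.99%, 94.5% and 94.98%. At far ends the lowest group had 16.1%, 36.0%, 14.8% and 22.7%, and the highest 34.8%, 50.3%, 32.8% and 42.0%. Even the far ends under the islands with most reads were acetylated less often than the starts under the islands with fewest, in all 4 pairs.

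**Figure D3:**
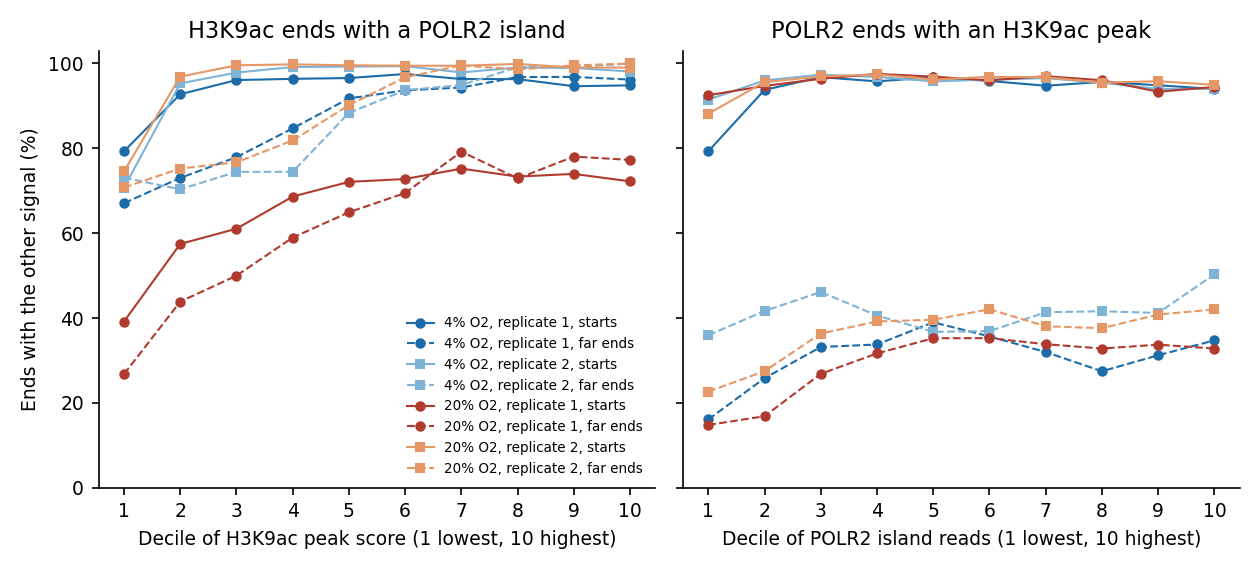
Left, share of H3K9ac gene ends with a POLR2 island by decile of peak score; right, share of POLR2 gene ends with an H3K9ac peak by decile of island reads; solid lines are gene starts and dashed lines far ends, 1 line per pair. The pair of 20% O2 replicate 1 runs below the others on the left, and on the right starts lie at 79.3% or above and far ends at 50.3% or below.

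Ends with both signals in all 4 pairs made up 18.6% of all ends, and 5815 of the 6670 with known strand were starts (87.2%). Ends with H3K9ac only were 0.304% of all ends, ends with POLR2 only 3.12% and ends with neither 52.3%. At starts both signals were present in all 4 pairs at 33.2%, H3K9ac only at 0.292%, POLR2 only at 0.48% and neither at 41.7%. At far ends the shares were 4.89%, 0.24%, 5.95% and 62%, so POLR2 only was the commoner signal there. Counting a gene by either end, 36.3% of genes had both, 0.397% H3K9ac only, 0.772% POLR2 only and 38.4% neither. The largest changing set, 3293 ends, had both signals in 3 pairs and H3K9ac only in 20% O2 replicate 1, the pair with the shortest polymerase list. Leaving out that pair gave 11700 ends with both signals and 2203 with POLR2 only.

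The 8 ends highest in both signals are described first. Ranks are percentiles within a library, 100 being the highest peak score or island read count. The start of Map1b, which encodes a microtubule-associated protein of growing axons, had peak scores of 77.0 and 107 at 4% O2 and 154 and 110 at 20% O2. Its island held 5818, 5882, 4533 and 6100 reads, and it was 107 to 120 kb long in the 4 libraries, which is longer than the gene (95139 bp). Mean ranks were 97.8 for H3K9ac and 99.2 for POLR2. The start of Atp5b, a subunit of the mitochondrial ATP synthase, had scores of 63.1, 107, 104 and 136 and an island of 4876, 7471, 1162 and 6480 reads. In 3 of the 4 libraries this same island also covered the start of Ptges3, a co-chaperone gene next to it, so the polymerase ranks of neighbours are not independent. That start of Ptges3 was itself among the 8 highest. Setd5, Sqstm1 (an autophagy receptor), Puf60 (a splicing factor), Canx (the chaperone calnexin) and Enc1 completed them, with mean ranks of 95.8 to 99.7 for H3K9ac and 92.3 to 98.6 for POLR2. These 8 were picked by rank, so their values are a description.

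Ends with H3K9ac only had weaker acetylation than ends with both signals, and most lay over 5 kb from polymerase. Their median H3K9ac rank was 15.1, 14.9, 17.8 and 11.7 in the 4 libraries, against 54.2, 58.5, 56.7 and 58.8 at ends with both signals. The median distance to the nearest POLR2 island was 28.9, 26.3, 67.2 and 17.4 kb. Within 5 kb of an island lay 14, 15, 6 and 13 of the 133. Ends with neither signal lay farther off, at medians of 73.8, 68.7, 131 and 61.4 kb. Starts and far ends were nearly balanced, 51 and 42, with strand unknown for 40. Only 3.92% of these starts had another gene's end close enough for the windows to touch, against 34.7% of starts with both signals.

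A few of these ends were strongly acetylated. The end of Trps1, a GATA-type repressor, at position 50890631 of chromosome 15 had scores of 75.8, 134, 90.7 and 141, a mean rank of 97.7, and no island within 99.6 kb in any POLR2 library. The start of Parl, a mitochondrial rhomboid protease, had scores of 38.0, 122.8, 97.3 and 170 (mean rank 94.1), with the nearest island 8.01, 112, 58.4 and 120 kb away. Both were acetylated in all 4 libraries, with the lowest score in 4% O2 replicate 1. The start of Tnr, which encodes the neural matrix protein tenascin-R, had scores of 24.8, 85.5, 58.9 and 77.8 and its nearest island at 42.3 to 284 kb. Ttc33, Eif3e and Eif3h (subunits of the initiation factor eIF3), Naip6 and Atp6v1c1 (a proton pump subunit) completed the 8, with mean ranks of 68.6 to 93.4. Naip6 belongs to a family of near-identical copies, so its value is uncertain. Lack of an island with the total polymerase antibody did not mean that no polymerase form was called. The serine 5 form had an island at the Eif3e end in 4 of 4 libraries, at Ttc33 and Atp6v1c1 in 3 of 4, and at Tnr in 0 of 4.

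Chromosome 15 held 19 of the 133 ends, or 14.3%, against 3.55% of all ends, and 5 of the 8 genes just given lie on it. Of the 19, 13 lay in its first 75 Mb, a limit chosen after the values were seen. In that stretch, polymerase was called at 53.9%, 71.8%, 18.8% and 82.1% of acetylated ends, against 93.2%, 93.7%, 65.7% and 95.2% on the other chromosomes. Every pair was lower there. On the rest of chromosome 15 the shares were 94.1%, 91.0%, 58.9% and 93.99%. Islands held more reads on both parts of chromosome 15 (medians 384, 682, 283 and 584 in the first 75 Mb and 376, 862, 226 and 522 beyond it) than on other chromosomes (190, 301, 125 and 222). What sets the stretch apart was not tested. Outside chromosome 15, 114 ends had H3K9ac only in all 4 pairs.

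Ends with POLR2 only were mostly the far ends of genes whose start had both signals. Of 1124 with known strand, 1040 were far ends (92.5%) and 84 were starts. The start of the same gene had both signals in all 4 pairs for 795 of the 1040, or 76.4%. That share was 67.4% for far ends with both signals (576 of 855) and 18.8% for far ends with neither. Of all starts, 33.2% had both. Their islands were long, with medians of 16399, 26599, 9799 and 18399 bp over all 1367 such ends, against 7999, 13199, 4399 and 8599 bp at ends with both signals. By island reads their median rank was 71.9, 72.7, 64.7 and 73.4, above the 53.3, 50.3, 49.7 and 54.4 of ends with both. By reads per kb the order turned over, to 36.0, 48.7, 20.7 and 36.4 against 60.8, 58.7, 59.7 and 64.3. In every library the islands over these ends were thus longer, and lower by median rank in reads per kb, than those at shared ends. At starts alone the order per kb was the other way in 4% O2 replicate 2 (60.8 against 58.0). Reads per kb are averaged over a whole island and do not give the level at the gene end itself.

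The gene ends highest in POLR2 without acetylation included Scrt1, a neuronal zinc finger repressor on chromosome 15. Its island held 7824, 9678, 2100 and 4970 reads, and the nearest H3K9ac peak was 1.16 to 3.16 kb from the end in the 4 libraries. The far end of Map1b lay in the same island as its start, so this gene carried both signals at one end and polymerase alone at the other, 5.50 to 7.10 kb from a peak. Chgb and Tubb3, neuroendocrine and neuronal genes from the marker list, had the same arrangement, with 759 to 1606 and 1594 to 4721 reads in an island that reached both ends of each gene. Map3k12, a kinase of axon injury signalling, and Pcbp2 had their far ends in 1 shared island, of 3215, 6296, 2242 and 4579 reads. Plec, Ptges3, Thumpd3 and Haghl completed the 8, all in islands of more than 1000 reads in every library.

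Starts with POLR2 only were 0.48% of all starts, and most lay near acetylation that missed the window. Their nearest H3K9ac peak was a median of 3.55, 2.78, 3.41 and 2.86 kb away, and a peak lay within 5 kb for 49, 57, 49 and 54 of 84. The start of Slc35g3 lies beside Polr2a, the gene of the largest polymerase subunit, and both starts were in 1 island of 1406, 2264, 821 and 1525 reads. The Polr2a start was acetylated, with scores of 49.2, 102, 105 and 85.2, and the nearest peak was 1.03 to 1.17 kb from the Slc35g3 start. Lin7b, a scaffold protein of synapses, had 1688, 2989, 1097 and 2187 reads and a peak 1.22 to 2.16 kb away. Ubtf, an RNA polymerase I factor, had 1463, 2001, 1010 and 1563 reads and a peak 1.94 to 2.26 kb away. Pycard, the inflammasome adaptor, was farther, with 1476, 2004, 945 and 892 reads and a peak 23.4 to 24.9 kb away. In each of these the island was called in all 4 libraries and the peak in none. These starts were named in addition to the rule, after their values were seen.

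Where both signals were present, their strengths were related by rank to a moderate degree. Spearman's rho between the highest peak score and the island reads was 0.481, 0.443, 0.463 and 0.517 over 12102, 13745, 8567 and 13689 ends in the 4 pairs. For comparison, rho between libraries of the same antibody was 0.552 to 0.811 for H3K9ac and 0.612 to 0.797 for POLR2. At starts alone rho was 0.531, 0.564, 0.522 and 0.597, and at far ends 0.260, 0.179, 0.236 and 0.300. Island reads follow island length closely (rho 0.902 to 0.955), and with reads per kb the values over all ends were 0.238, 0.189, 0.243 and 0.146. The median of the 4 pairs was 0.472 by reads and 0.213 per kb. These values describe gene ends, which share libraries, islands and neighbours, and are not tested.

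Ranks that differed between the antibodies were found at the 8158 ends called in all 8 libraries, re-ranked among themselves. By limma with Benjamini-Hochberg adjustment, H3K9ac ranked higher at 495 ends (6.07% of those tested) and POLR2 at 527 (6.46%). The sign was the same in all 4 pairs for 490 and 523 of them. With the pairing kept in the fit, 558 (6.84%) and 597 (7.32%) ends passed. Of the 495, 390 kept the sign when islands were ranked by reads per kb and 91 passed there as well, and of the 527 the numbers were 414 and 150. The calls moved with single libraries: without the POLR2 library of 4% O2 replicate 1, 4% O2 replicate 2 or 20% O2 replicate 2, H3K9ac ranked higher at 220, 246 and 219 ends, and POLR2 at 322 without the first and 343 without the last.

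Median gene length was 8.98 kb where POLR2 ranked higher, 17.0 kb over all ends tested and 23.5 kb where H3K9ac ranked higher. Median island length was 20.5, 9.40 and 5.25 kb in the same order, a contrast that ranking by island reads fixes in large part. Far ends were 167 of the POLR2 calls, or 19.5% of the 855 far ends tested, but 18 of the H3K9ac calls (2.11%). At starts the shares were 4.68% and 6.86% of 5815. This balance depended on ranking starts and far ends together: ranked within far ends alone, 97 ends passed in each direction, and within starts alone 321 with POLR2 higher and 289 with H3K9ac higher.

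The 8 ends with the strongest acetylation for their polymerase were all gene starts. Zfp994 had peak scores of 76.0, 56.2, 124 and 91.1 and islands of only 120, 116, 64 and 139 reads. Its H3K9ac rank exceeded its POLR2 rank by 79.9 ± 9.70 points (SE, limma adjusted p = 0.000818, 4 of 4 pairs). Ddx47, an RNA helicase, had scores of 32.7, 102, 66.4 and 114 over islands of 110, 140, 140 and 144 reads, a difference of 73.5 ± 9.86 (SE, limma adjusted p = 0.00158, 4 of 4 pairs). Scores at both starts varied among libraries, and each island held fewer reads than the median of ends with both signals in its library. Acyp2, Zfp933, Tcaf1, Dynlt1f, Pnpt1 and Igtp completed the 8, with differences of 67.5 to 70.5 points in 4 of 4 pairs. With reads per kb, the difference was 23.7 for Zfp994, 34.0 for Tcaf1, 31.5 for Igtp and 5.76 for Dynlt1f, and Pnpt1 changed sign, to -7.66. Zfp994, Zfp933 and Dynlt1f belong to families with close copies, so reads may be shared among them.

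Genes with strong polymerase for their acetylation were led by Scx, a transcription factor on chromosome 15. The peak scores at its end were 6.42, 4.00, 3.88 and 6.79, under islands of 7824, 9678, 703 and 3523 reads. Among the acetylated gene ends of each library these scores ranked at 5.04, 0.733, 0.486 and 4.30 of 100. The difference was -97.1 ± 5.94 points (SE, limma adjusted p = 8.5e-05, 4 of 4 pairs), and -39.0 with reads per kb. In both 4% O2 libraries that island was the one that held Scrt1. Klf10, a Krüppel-like factor, had scores of 6.51, 10.1, 5.85 and 11.5 with 2201, 2350, 1154 and 2451 reads (difference -92.2 ± 6.33, limma adjusted p = 8.5e-05, 4 of 4 pairs, and -85.4 per kb). Both ends had acetylation of low rank under islands of high rank. Scd2 (a fatty acid desaturase), Nfe2l1, Trib3, Tmem88b, Erf and Gnas completed the 8, with differences of -90.9 to -85.0 points. With reads per kb these ran from -77.9 for Scd2 to -45.6 for Erf and -16.9 for Gnas. The last of these, the annotated start of Gnas, a gene with several promoters, was the only one of the 8 at a known start.

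**Figure D4:**
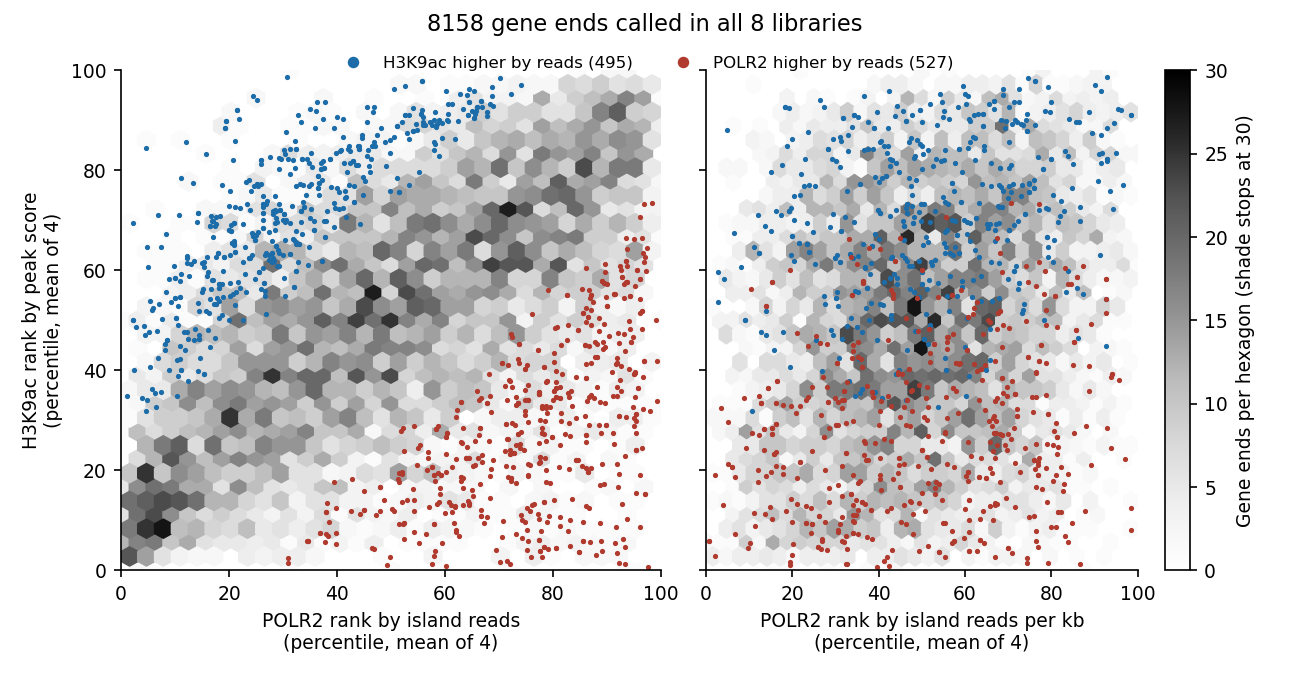
Mean percentile rank of H3K9ac peak score against that of POLR2 island reads (left) or reads per kb (right) at the 8158 ends called in all 8 libraries; shade counts ends per hexagon, and coloured points are the 495 and 527 ends called by limma from island reads. The band along the diagonal on the left widens on the right. The median rho was 0.472 by reads and 0.213 per kb, taken in each pair over all its ends with both signals rather than these 8158.

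Gene groups differed in which signal ranked higher. Over all 8158 ends the median difference was 1.31 points. Proteasome subunits had a median of 13.8 points over 28 ends: H3K9ac ranked higher at 7 (25%, against 6.07% of all ends) and POLR2 at 0. Psmc4, an ATPase of the regulatory particle, had a difference of 59.9 ± 10.5 points (SE, limma adjusted p = 0.00604), and Psma1, a core subunit, 41.6 ± 8.43 (SE, limma adjusted p = 0.0109). Zinc finger genes named Zfp had a median of 14.1 points over 202 ends, with H3K9ac higher at 41 (20.3%) and POLR2 at 11 (5.45%). With reads per kb the medians were 15.01 and 0.965 points, against 0.00919 over all ends, so the difference for the Zfp genes was near that of all ends on this scale.

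Ribosomal protein genes leaned the other way. Of 85 genes, 80 had both signals by either end in all 4 pairs (94.1%, against 36.3% of all genes). The median difference over 110 ends was -12.1 points, with POLR2 higher at 11 (10%, against 6.46% of all ends) and H3K9ac at 0. With reads per kb the median over the 110 ends was -2.49. Of these ends 59 were known starts, with a median of -11.4 points by island reads. POLR2 ranked higher at 4 of the 59, against 4.68% of all starts tested. Rpl18 had a difference of -66.0 ± 11.4 points at its start (SE, limma adjusted p = 0.00557). Immediate early genes had a median of -20.1 points over 19 ends, and of -11.6 per kb. POLR2 ranked higher at 4 (21.1%, against 6.46% of all ends), at Ier2, Jun and both ends of Ier3, and H3K9ac at 0. Known starts were 10 of the 19 ends, and POLR2 ranked higher at 1 of these starts. Fos, the best known of the immediate early genes, had scores of 26.7, 108, 39.1 and 90.0 with 625, 2100, 231 and 1150 reads at its start. Its difference was -3.34 ± 11.5 points (SE, limma adjusted p = 0.88). Replication-dependent histone genes had a median of -16.1 points over 54 ends, with POLR2 higher at 4 (7.41%, near the share of all ends) and H3K9ac at 0, and a median of -32.9 per kb. These are short clustered genes with near-identical copies that share islands.

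Genes for the machinery of the mark and of the polymerase carried both signals in over 50% of each list. Both signals were present by either end in all 4 pairs at 7 of 11 histone acetyltransferase genes, 15 of 18 SAGA and ATAC subunits, 8 of 15 deacetylases and 8 of 11 readers of acetyl-lysine, which is 63.6%, 83.3%, 53.3% and 72.7% against 36.3% of all genes. Among the acetyltransferases, the start of Kat2a, which encodes GCN5, had scores of 46.2, 73.0, 98.8 and 132 and 917, 1888, 473 and 1085 island reads (difference 9.67 points, limma adjusted p = 0.367). Crebbp, a coactivator acetyltransferase, was lower in both, with scores of 11.4, 38.2, 16.8 and 49.1 and 168, 539, 112 and 399 reads (difference -6.84 points, limma adjusted p = 0.605). Kat7 passed with H3K9ac higher (42.5 ± 9.74 points, SE, limma adjusted p = 0.0193) and Taf1 with POLR2 higher (-36.1 ± 9.88, SE, limma adjusted p = 0.0392). With reads per kb Kat7 turned to -4.28 and Taf1 came to -23.6. Of RNA polymerase II subunits 11 of 13 genes had both signals, and 21 of 29 general transcription factors and 23 of 27 pausing and elongation factors did so (84.6%, 72.4% and 85.2%). Over the ends of these 3 lists that were tested, H3K9ac ranked higher at 1 of 12, 2 of 21 and 0 of 24, and POLR2 at 1, 4 and 1. Over all ends tested the shares were 6.07% and 6.46%, and counts this small do not set the lists apart from them.

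The other antibodies were read at the same classes, and their libraries took no part in forming them. The serine 5 and serine 2 forms are, however, forms of the same polymerase whose calls define the classes. Gaps in them between ends with and without total polymerase were largely fixed by that definition. Their p-values are therefore no independent support. The serine 5 form of the polymerase was called at 99.5%, 99.8%, 97.8% and 99.96% of ends with both signals and at 21.8%, 16.5%, 12.03% and 21.8% of ends with H3K9ac only. The serine 2 form was called at 91.3%, 96.5%, 54.3% and 89.7% against 18.0%, 15.8%, 8.27% and 16.5%. Over all gene ends the serine 5 form was called at 45.5%, 45.1%, 40.9% and 48.3%. The serine 2 form was called at 44.6%, 45.9%, 31.1% and 45.1% of all gene ends. The 2 acetylated classes did not overlap for either form. The mean differences were 81.2 and 68.3 points, in 4 of 4 libraries each (exact permutation test, p = 0.0286, adjusted over 4 antibodies 0.0571; with libraries paired, p = 0.125, the smallest possible). At ends with POLR2 only, the serine 5 form was called at 98.5% to 99.8% and the serine 2 form at 95.6% to 99.0%. Ends with H3K9ac only had the serine 5 form at 18.0% ± 4.72 on average (SD, n = 4) and ends with neither at 6.51% ± 1.79, without overlap. For the serine 2 form the averages were 14.7% ± 4.36 and 11.9% ± 1.75, with overlap.

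CTCF, a protein of insulators and loop anchors, covered similar ranges in both acetylated classes. It was called at 52.0%, 48.9%, 42.9% and 42.3% of ends with both signals and at 47.4%, 45.1%, 45.1% and 44.4% of ends with H3K9ac only, and these ranges overlap. The difference of 1.05 points (exact permutation test, p = 0.714, adjusted 0.714, higher in 2 of 4 libraries) changed sign under 7 other settings and without 20% O2 replicate 2 of either antibody (-0.056). At starts alone CTCF was higher with both signals in 4 of 4 libraries, by 5.07 points (exact permutation test, p = 0.143, adjusted 0.19). The cohesin subunit RAD21 was called at 28.2%, 47.7%, 14.8% and 44.4% of ends with both and at 43.6%, 50.4%, 37.6% and 49.6% of ends with H3K9ac only. It was lower at ends with both in 4 of 4 libraries, by 11.5 points on average, within the spread between libraries (exact permutation test, p = 0.229, adjusted 0.305). At starts alone it was lower in 2 of 4. Ends with POLR2 only had CTCF at 14.6% to 21.4% and RAD21 at 4.39% to 8.27%, against 18.8% to 24.0% and 7.57% to 18.5% of all gene ends and averages of 6.05% and 2.51% of ends with neither.

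**Figure D5:**
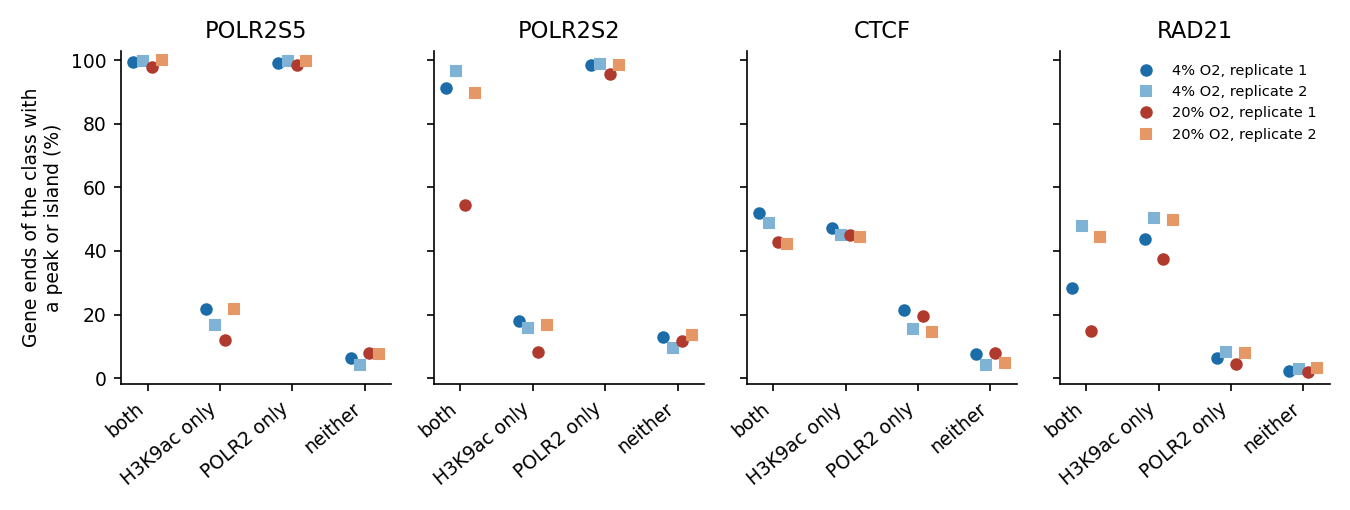
Share of gene ends in each class (all 4 pairs) with a peak or island of 4 further antibodies, 1 point per library; circles are replicate 1 and squares replicate 2. Both phosphorylated polymerase forms are near the top wherever total polymerase was called, apart from serine 2 in 20% O2 replicate 1 at 54.3%, whereas CTCF and RAD21 lie between 14.8% and 52.0% in both acetylated classes.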

How the data were processed

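H3K9ac and POLR2 chromatin immunoprecipitation libraries of N1E115 cells were compared, with CTCF, RAD21, POLR2S5 and POLR2S2 as further readouts. Reads were processed by the authors with BWA and Picard on mm10, per the submitters' processing notes; tool versions and parameters were not given in the sources used here. The peaks of H3K9ac, CTCF and RAD21 were called with MACS2 and islands of the polymerase forms with SICER, 1 list per library, per the file headers. In the deposited MACS2 lists the final column was taken to be −log10 of the q-value, and in the deposited SICER lists the count of reads in the island, unscaled; both were judged from the values because the columns have no names. These scores are the authors' and were used for ranks within a list. Replicate 2 lists deposited beside replicate 1 held the same scores as the replicate 2 entries in 12 of 12 groups and were used for replicate 2. Inputs were not analysed here.

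Gene ends are those of RefSeq GRCm38.p6 on chromosomes 1 to 19, X and Y; strand came from the RefSeq promoter table and was missing for 8790 ends. Counts and shares were compared by exact permutation tests (70 arrangements of 4 against 4) and by sign changes over 4 pairs. Percentile ranks were compared with limma 3.58.1 in R 4.3.3, with adjusted p under 0.05 by Benjamini-Hochberg over 8158 ends. The code was tested on simulated data, with 80 rank differences planted at each of 20, 40 and 60 points. The fit without the pairing recovered 0%, 16.25% and 63.75% of them. The fit with the pairing kept recovered 0 of 80 at each size. False calls were 0 in both fits. The deviations of each antibody's libraries were shuffled separately, so the simulated libraries held no pairing. The simulation therefore cannot judge the fit with the pairing kept. In the real data that fit called 558 and 597 ends, against 495 and 527 without the pairing. Deviations of an H3K9ac library from its group mean correlated best with those of the POLR2 library of the same O2 level and number in 4 of 4 cases (Pearson's r 0.142 to 0.216), so the numbers were taken to pair the libraries; replicate 1 and replicate 2 libraries of these antibodies also ran on different flow cells, per the file headers. Genes were named by rule: the 8 highest in mean rank of each class and the 8 largest rank differences each way, at ends whose window touched no other gene's, without predicted or clone-named genes, and, from each of 27 gene lists, up to 4 members per class in alphabetical order. Some list members and gene starts named beyond this, such as Fos, Psmc4, Rpl18, Bnip3l, Tubb3 and Lin7b, were chosen after their values were seen. The members, rule and lists were chosen with earlier results of these data known. Alternatives covered window, overlap, list length, score, the pairing and each library left out; those by side of the gene and without chromosome 15 were added after seeing the data.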

Additional observations from a re-analysis of the deposited data

Results flagged for a closer look

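Of 38 sets of 4 library values examined for 1 value far from the other 3, 5 were marked, where chance marks about 1 in 20; each set mixes the O2 levels. The pair of 20% O2 replicate 1 gave 4 of the values that were far from the rest: 65.01% of its H3K9ac ends had POLR2, 66.6% of its acetylated starts, 62.2% of its acetylated far ends, and its serine 2 library covered 54.3% of ends with both signals. The first 3 rest on the same total POLR2 list, the shortest of the 4 with 11172 islands. The serine 2 list of that library was not short, with 17765 islands against 16174 to 18938 in the other 3, but its islands covered 152 Mb against 237 to 267 Mb. The fifth value was the share of POLR2 starts with H3K9ac in 4% O2 replicate 1, 93.8%, against 95.4% to 95.5% in the other 3 pairs.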

How the results depend on the processing

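Counts of ends with both signals, H3K9ac only and POLR2 only in all 4 pairs moved with list length, neighbouring gene ends, side of the gene and single libraries. Features above the median score of each list gave 4923 with both and 714 with H3K9ac only, and lists of equal length gave 728 with H3K9ac only. Ends with no other gene end near gave 4994 with both and 693 with POLR2 only. Starts alone gave 51 with H3K9ac only and 84 with POLR2 only, and far ends alone gave 855 with both and 42 with H3K9ac only. Leaving out a library, and so its pair, gave 8193 to 11700 with both, 151 to 236 with H3K9ac only and 1536 to 2203 with POLR2 only. Pairing POLR2 with the other O2 level left these 3 counts as they were by construction. The difference in called ends was 641 at starts, the reverse sign, and -2564 at far ends (exact permutation test, p = 0.0286), and -3721 to -1539 with a library left out. With the pairing kept, the difference at far ends could not pass, because 4 pairs allow no exact p under 0.125. The difference in shares was -6.77 at starts, the reverse sign, 46.7 at far ends (exact permutation test, p = 0.0286), and 9.33 to 18.7 with a library left out.

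The median rho was 0.213 with reads per kb, 0.344 above the median score of each list, 0.372 with lists of equal length, 0.511 at ends with no other gene end near, 0.547 at starts and 0.248 at far ends. Ends with H3K9ac ranked higher numbered 1042 with summed peak scores, 261 with no other gene end near, 289 at starts and 97 at far ends, and ends with POLR2 ranked higher 959, 296, 321 and 97; features above the median score gave 349 of the latter. Leaving out a library gave 219 to 604 and 322 to 669. The replicate block gave 558 and 597 and ended the call on shares at far ends (p = 0.125 by exact sign changes, the smallest 4 pairs allow); with the pairing kept, the exact p was 0.25 for called ends and for shares over all ends and the adjusted p 0.167 for the serine 5 form, the serine 2 form and RAD21, none past the threshold with or without it. CTCF turned negative at far ends (-3.27), with no other gene end near (-0.0541), with lists of equal length (-0.544), 200 bp of overlap (-5.39), features above the median score (-2.14), 500 bp windows (-1.48) and without chromosome 15 (-0.154), and ran from -0.056 to 6.53 with a library left out. Lists of equal length gave differences of 46.9 for the serine 5 form, 66.1 for the serine 2 form and -8.98 for RAD21 (exact permutation test, adjusted p = 0.0381 each). The cause of these changes was not tested. Unknown library depth limits all calls: an end without a call may hold signal under the callers' thresholds.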

Other observations

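Of 1459 olfactory and vomeronasal receptor genes, 1447 had neither H3K9ac nor POLR2 at either end in any pair (99.2%, against 38.4% of all genes). Of 39 Hox genes, 30 had neither (76.9%, against 38.4% of all genes) and 8 changed class between pairs. The last, Hoxc6 on chromosome 15, had both in all 4 pairs (2.56%, against 36.3%). Hoxc6 had peak scores of 48.9, 71.4, 69.4 and 51.8 and islands of 959, 1372, 480 and 929 reads. Clustered protocadherin genes encode neuronal cell surface proteins chosen cell by cell from alternative promoters. Of 57, 32 had neither (56.1%, against 38.4% of all genes), 2 had H3K9ac only (3.51%, against 0.397%) and 23 changed class between pairs. The number with both in all 4 pairs was 0 (against 36.3% of all genes). In single pairs it was 7 and 7 at 4% O2 and 0 and 10 at 20% O2. With 0 in 20% O2 replicate 1 the number in all 4 pairs could only be 0. Genes with both signals in the other pairs together were not counted. Ion channel genes of neurons were near the shares of all genes, with both signals at 8 of 20 (40%, against 36.3%) and neither at 7 (35%, against 38.4%).

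Genes known as targets of the hypoxia-inducible factor and of glycolysis had both signals in 20 of 30 cases (66.7%, against 36.3% of all genes). POLR2 ranked higher at 3 of 21 ends tested (14.3%, against 6.46% of all ends) and H3K9ac at 0 (against 6.07%). Aldoa, the glycolytic aldolase, was 1 of the 3 (-43.6 ± 11.8 points, SE, limma adjusted p = 0.0376), and its value per kb was -10.3. Bnip3l, a mitophagy receptor, was another (-45.4 ± 11.1 points, SE, limma adjusted p = 0.0252), and its value per kb was 29.0, of the other sign. Heat shock chaperones had both signals in 9 of 12 genes (75%, against 36.3% of all genes), with 0 of 8 ends passing either way. Mitochondrial ribosomal protein genes had both in 64 of 78 (82.1%, against 36.3%). H3K9ac ranked higher at 4 of 72 ends (5.56%) and POLR2 at 7 (9.72%), near the shares of all ends. Mrpl13 had H3K9ac only and Mrpl24 POLR2 only.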
